A study of Mus musculus with 4 samples.

Results

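Semaphorins, plexins, neuropilins, Eph receptors and ephrins were examined in the embryonic mouse cortex after loss of *Qk*, a gene that encodes the RNA-binding protein Qki. The set was made of all genes whose symbol starts with Sema3 to Sema7, Plxna to Plxnd, Nrp, Epha, Ephb, Efna or Efnb followed by a number, and held 53 of the 23038 genes in the expression files and 115 of the 38240 alternative splicing events. The rule itself names symbols and uses no measured value. Cortices of embryonic day E14.5 were compared between 2 control embryos (*Qk* fl/fl, labelled wild type) and 2 *Qk* cKO embryos (*Nestin*-cre:*Qk* fl/fl), which are littermates and share the floxed allele. Cre is driven by *Nestin* in neural progenitors and is meant to act in these cells and their progeny. Whether vessels, meninges and microglia of the same tissue kept an intact *Qk* was not measured here. PolyA-selected RNA of whole cortex was sequenced, so fewer cells of a type and less RNA per cell cannot be told apart in any level given here. Whether tissue was pooled, and which embryos share a litter, is not given in the sources used here.

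Semaphorins and ephrins are guidance cues that steer growing axons and migrating neurons. Class 3 semaphorins are secreted and bind neuropilins, which lack a signalling domain of their own and pair with plexins of the A type, whereas most semaphorins of the other vertebrate classes are tied to the membrane and bind plexins directly. Ephrins are bound to the membrane as well, the A type by a lipid anchor and the B type by a membrane-spanning segment, and their receptors are the Eph tyrosine kinases. Signals pass in both directions between the touching cells, and in the developing cortex both systems are known for roles in neuronal migration, layering and the choice of axon paths.

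The set was widely expressed, and none of its transcripts passed the thresholds for a difference in level between control and *Qk* cKO (edgeR's quasi-likelihood test, p below 0.01 and Benjamini-Hochberg FDR below 0.1 over all genes). Of the 53 genes, 46 had a mean of at least 1 RPKM (tags scaled by exon length and by the depth of the library), with *Plxnb2* and *Plxna2* at the top. The calls were thus 0 of 53, against 0.584% of all 18834 genes tested. In splicing, 1 of the 47 events with enough tags of both forms was called, against 7.50% of all 11500 events tested. This event was a short retained intron of the semaphorin gene *Sema4g*.

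To show which stretches of coding sequence the splicing measurements concern, variable segments of 8 of these genes are printed here 5′ to 3′ on the transcribed strand. Capitals mark the variable segment, and the lower-case letters on either side are the adjoining bases of the mature transcript. Sequences and exon numbers come from GENCODE release M21 on GRCm38 (mm10). Each segment has a length that is a multiple of 3, so both forms keep the reading frame of the bases that follow.
Sema6c: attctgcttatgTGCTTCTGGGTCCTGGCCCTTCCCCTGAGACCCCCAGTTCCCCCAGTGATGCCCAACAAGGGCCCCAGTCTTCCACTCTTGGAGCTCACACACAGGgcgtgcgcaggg
Sema6d: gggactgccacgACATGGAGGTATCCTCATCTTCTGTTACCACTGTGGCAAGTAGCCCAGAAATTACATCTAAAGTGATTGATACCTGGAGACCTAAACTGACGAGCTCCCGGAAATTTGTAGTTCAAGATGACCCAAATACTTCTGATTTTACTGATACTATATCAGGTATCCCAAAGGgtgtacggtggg
Nrp2: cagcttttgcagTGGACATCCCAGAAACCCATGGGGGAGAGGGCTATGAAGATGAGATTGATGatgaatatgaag
Epha5: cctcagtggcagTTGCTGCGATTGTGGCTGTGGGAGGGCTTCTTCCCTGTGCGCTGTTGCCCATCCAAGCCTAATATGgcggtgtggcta
Epha7: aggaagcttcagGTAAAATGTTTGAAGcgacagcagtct
Ephb2: cgtatgtaacagAAGacgggggtttga
Efna5: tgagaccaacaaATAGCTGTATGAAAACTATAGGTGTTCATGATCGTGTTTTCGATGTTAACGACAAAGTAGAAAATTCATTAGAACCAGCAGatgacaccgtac
Efnb2: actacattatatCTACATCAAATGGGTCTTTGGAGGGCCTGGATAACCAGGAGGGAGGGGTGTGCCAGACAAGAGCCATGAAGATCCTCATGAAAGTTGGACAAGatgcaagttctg

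The 4 libraries held between 37942046 and 42994832 tags on genes, of which the set took 0.587% to 0.615%. Tags on the junction of *Qk* exons 2 and 3, per 100 tags on the junction of exons 3 and 4, were 111 and 129 in the controls and 7.02 and 8.19 in *Qk* cKO, so the libraries carried the deletion their labels state. The level of *Qk* itself was 21.1 and 21.7 RPKM in the controls and 32.5 and 34.2 RPKM in *Qk* cKO, a log2 fold change of 0.65 with an FDR of 2.5e-05 in edgeR's quasi-likelihood test. Without control replicate 2 this FDR was 0.341. Among markers of other tissue, 6 of the 10 genes of the hypothalamus and diencephalon list were called lower in *Qk* cKO. All 10 genes together summed to 11.7 and 28.7 RPKM in the controls and 9.87 and 3.28 RPKM in *Qk* cKO. The largest part of this sum was *Tcf7l2*, which was not called. It had 6.58 and 16.7 RPKM in the controls and 6.99 and 1.56 RPKM in *Qk* cKO. The sum was highest in control replicate 2, and *Rax*, a hypothalamic gene, was listed at 0 in *Qk* cKO replicate 1. Of the 8 radial glia markers, *Fabp7* and *Slc1a3* were called lower. The list summed to 1633 and 1512 RPKM in the controls and 1329 and 1267 RPKM in *Qk* cKO. *Fabp7* held most of this sum, with 989 and 901 RPKM in the controls and 703 and 667 RPKM in *Qk* cKO. The uncalled radial glia markers went both ways. Their log2 fold changes were -0.29 in *Sox2*, -0.19 in *Hes5*, -0.01 in *Vim*, 0.04 in *Nes*, 0.08 in *Hes1* and 0.08 in *Pax6*. No marker of the other 9 lists was called, with all 4 dorsal telencephalon markers present in every library (summed level 110 to 127 RPKM). The part of these differences in the levels and inclusions given here was not tested.

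Class 3 semaphorins, the secreted ligands, were the least abundant of the semaphorin groups. The highest was *Sema3c*, a ligand of both neuropilins, with 11.2 and 10.2 RPKM in the controls and 10.5 and 12.1 RPKM in *Qk* cKO. *Sema3f*, which acts mainly through neuropilin 2, followed with 7.36 and 7.61 RPKM in the controls and 7.07 and 8.10 RPKM in *Qk* cKO. For both genes the groups overlapped, and the log2 fold changes were 0.09 ± 0.09 and 0.03 ± 0.11 (SE, n = 2 per group). The 7 members of the class formed a graded series from 11.0 down to 0.362 RPKM on average, in which no sample range reached that of the next gene. At the low end, *Sema3b* was measured at 0.789 and 0.786 RPKM in the controls and at 0.620 and 0.528 RPKM in *Qk* cKO. Both *Qk* cKO samples thus lay below both controls, with a log2 fold change of -0.44 ± 0.23 (SE) and an FDR of 0.625 in edgeR's test. *Sema3d*, with 0.375 and 0.260 RPKM against 0.335 and 0.480 RPKM, overlapped between the groups (log2 fold change 0.37 ± 0.24).

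All 13 semaphorins of classes 4 to 7, mostly membrane-bound ligands that can also act as receptors, exceeded 1 RPKM, with means between 4.97 and 34.1 RPKM. *Sema4c*, a ligand of plexin B2, was the most abundant semaphorin, with 34.6 and 34.9 RPKM in the controls and 32.8 and 34.2 RPKM in *Qk* cKO. *Sema6c*, a transmembrane semaphorin, came next with 25.4 and 27.2 RPKM in the controls and 24.8 and 23.4 RPKM in *Qk* cKO. In both genes the 2 *Qk* cKO samples were the lowest of the 4, by small margins. Their log2 fold changes were -0.04 ± 0.05 and -0.11 ± 0.07 (SE, n = 2 per group). The smallest FDR of the whole set, 0.428 by edgeR's quasi-likelihood test, belonged to *Sema5a*, which has thrombospondin repeats outside the membrane. Its levels were 5.43 and 6.64 RPKM in the controls and 6.495 and 7.09 RPKM in *Qk* cKO, so that one control lay between the *Qk* cKO samples, and its log2 fold change was 0.18 ± 0.07 (95% interval 0.03 to 0.34). The value was 0.05 without control replicate 1 and 0.33 without control replicate 2. *Sema4a* had 7.13 and 8.59 RPKM in the controls and 7.12 and 6.25 RPKM in *Qk* cKO. Here control replicate 2 stood highest, and the log2 fold change was -0.22 ± 0.12 with an FDR of 0.658 in the same test.

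Plexins, the signalling receptors of semaphorins, were the most abundant group, with a summed level of 319 to 340 RPKM in each library. *Plxnb2*, known for its role in cortical and cerebellar progenitors, had 71.2 and 75.1 RPKM in the controls and 69.4 and 69.9 RPKM in *Qk* cKO. *Plxna2*, a partner of neuropilins and receptor of class 6 semaphorins, had 68.1 and 66.6 RPKM in the controls and 67.5 and 73.8 RPKM in *Qk* cKO. The sample ranges of these 2 genes overlapped, and both were above the range of every other plexin. *Plxna1* had 40.2 and 50.9 RPKM in the controls and 42.0 and 39.5 RPKM in *Qk* cKO, where the spread between the controls exceeded the distance between the groups. The log2 fold change was -0.15 ± 0.09, and it changed sign to 0.03 without control replicate 2. *Plxnd1*, a receptor of the secreted Sema3e that is also strong in vessels, had 26.2 and 23.0 RPKM in the controls and 23.8 and 29.1 RPKM in *Qk* cKO (log2 fold change 0.11 ± 0.07). Except for *Plxnb3*, all plexins had means above 20 RPKM. *Plxnb3* was close to absence in this tissue, with 0.0152 to 0.0892 RPKM.

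Both neuropilins, the co-receptors of class 3 semaphorins, were expressed. *Nrp2* had 24.05 and 23.4 RPKM in the controls and 22.7 and 22.4 RPKM in *Qk* cKO. *Nrp1*, which also serves as a receptor of VEGF in vessels, had 14.7 and 13.2 RPKM in the controls and 14.3 and 14.7 RPKM in *Qk* cKO. The 4 values of *Nrp2* were all above those of *Nrp1*. Both *Qk* cKO samples were below both controls in *Nrp2*, whereas the groups overlapped in *Nrp1*. The log2 fold changes were -0.06 ± 0.06 and 0.07 ± 0.06 (SE, n = 2 per group), with 95% intervals that stayed within -0.18 and 0.19 and included 0.

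**Figure D1:**
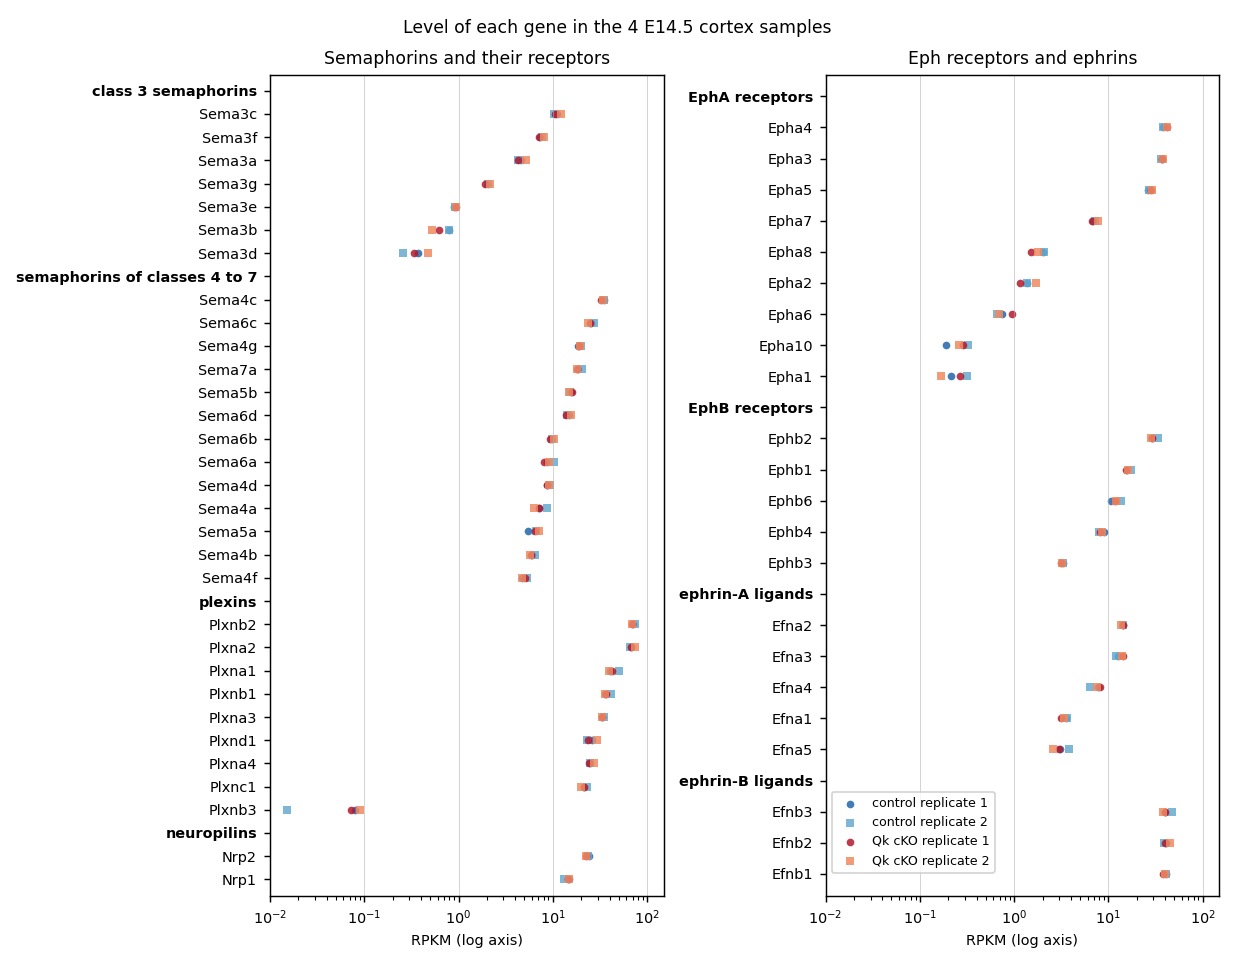
Level of each of the 53 genes in RPKM on a log axis, with 1 point per sample (blue: control, red: *Qk* cKO; circle: replicate 1, square: replicate 2). Points of most genes lie close together compared with the full range of levels, though the points of several neighbouring genes overlap. A mean below 1 RPKM is seen in 7 genes.

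EphA receptors ranged from among the highest to the lowest levels of the set. *Epha4*, the receptor that binds ephrins of both types, had 37.5 and 38.2 RPKM in the controls and 41.5 and 41.9 RPKM in *Qk* cKO. The groups did not overlap, and the log2 fold change was 0.15 ± 0.07 (95% interval 0.01 to 0.30) with an FDR of 0.522 in edgeR's quasi-likelihood test. *Epha3* had 36.9 and 35.9 RPKM in the controls and 36.6 and 37.6 RPKM in *Qk* cKO, with overlapping groups (log2 fold change 0.04 ± 0.05). *Epha8*, a weak member here, had 2.01 and 2.09 RPKM in the controls and 1.52 and 1.78 RPKM in *Qk* cKO. Both *Qk* cKO values were below both controls, the log2 fold change was -0.30 ± 0.14 (95% interval -0.59 to -0.01), and the FDR in the same test was 0.538. Of the 9 EphA genes, 3 had means below 1 RPKM (*Epha6*, *Epha10* and *Epha1*).

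EphB receptors had means between 3.24 and 30.1 RPKM, and neighbours in this order of 5 genes had no overlapping sample ranges. *Ephb2* had 29.2 and 33.8 RPKM in the controls and 28.8 and 28.5 RPKM in *Qk* cKO, and *Ephb1* had 15.7 and 17.5 RPKM in the controls and 15.5 and 16.1 RPKM in *Qk* cKO. In both, control replicate 2 was the highest library. The log2 fold change of *Ephb2* was -0.12 ± 0.06 with an FDR of 0.612, and that of *Ephb1* was -0.06 ± 0.06 with an FDR of 0.855 (edgeR, n = 2 per group).

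Ephrin-A ligands were led by *Efna2*, with 14.3 and 14.1 RPKM in the controls and 14.4 and 13.6 RPKM in *Qk* cKO. *Efna3* had 12.6 and 12.05 RPKM in the controls and 14.1 and 13.99 RPKM in *Qk* cKO, without overlap between the groups (log2 fold change 0.21 ± 0.11, FDR 0.662 by edgeR). The opposite order was seen in *Efna5*, an ephrin known from the mapping of axon projections, with 3.05 and 3.82 RPKM in the controls and 2.96 and 2.59 RPKM in *Qk* cKO. This gave a log2 fold change of -0.29 ± 0.13 (95% interval -0.56 to -0.03), with an FDR of 0.5004 by the same test. The fold change was -0.45 without control replicate 1 and -0.13 without control replicate 2.

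Ephrin-B ligands lay close together at about the level of the strongest EphA receptors. *Efnb3* had 39.9 and 47.6 RPKM in the controls and 40.0 and 37.5 RPKM in *Qk* cKO, so control replicate 2 alone was apart. The log2 fold change was -0.16 ± 0.07 (95% interval -0.30 to -0.02) with an FDR of 0.461 in edgeR's quasi-likelihood test, and it was -0.28 without control replicate 1 and -0.03 without control replicate 2. *Efnb2*, which also marks arterial vessels, had 40.8 and 38.6 RPKM in the controls and 39.9 and 45.2 RPKM in *Qk* cKO (log2 fold change 0.11 ± 0.06). The ranges of these genes and of *Efnb1* overlapped, so their order could not be set. *Efnb1* is named with *Plxnb3* and the weak EphA receptors after their values were seen.

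Over the whole set, 0 of 53 transcripts were called by edgeR, and 5 had an unadjusted p below 0.05 (*Sema5a*, *Efnb3*, *Efna5*, *Epha4* and *Epha8*), or 9.43% against 8.76% of all genes tested. Log2 fold changes were positive in 27 genes and negative in 26, and their median of 0.00065 lay beside that of all genes tested, -0.0025. Among the 46 genes of at least 1 RPKM the values ran from -0.30 to 0.21. The 95% interval stayed inside ±0.5 in 44 of these 46, *Epha8* and *Efna5* being those that reached beyond. Both *Qk* cKO samples lay below both controls in 14 of the 53 genes and above them in 4, where the shares over all genes tested were 20.6% and 16.3%. DESeq2 and edgeR's exact test gave no call in the set either.

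**Figure D2:**
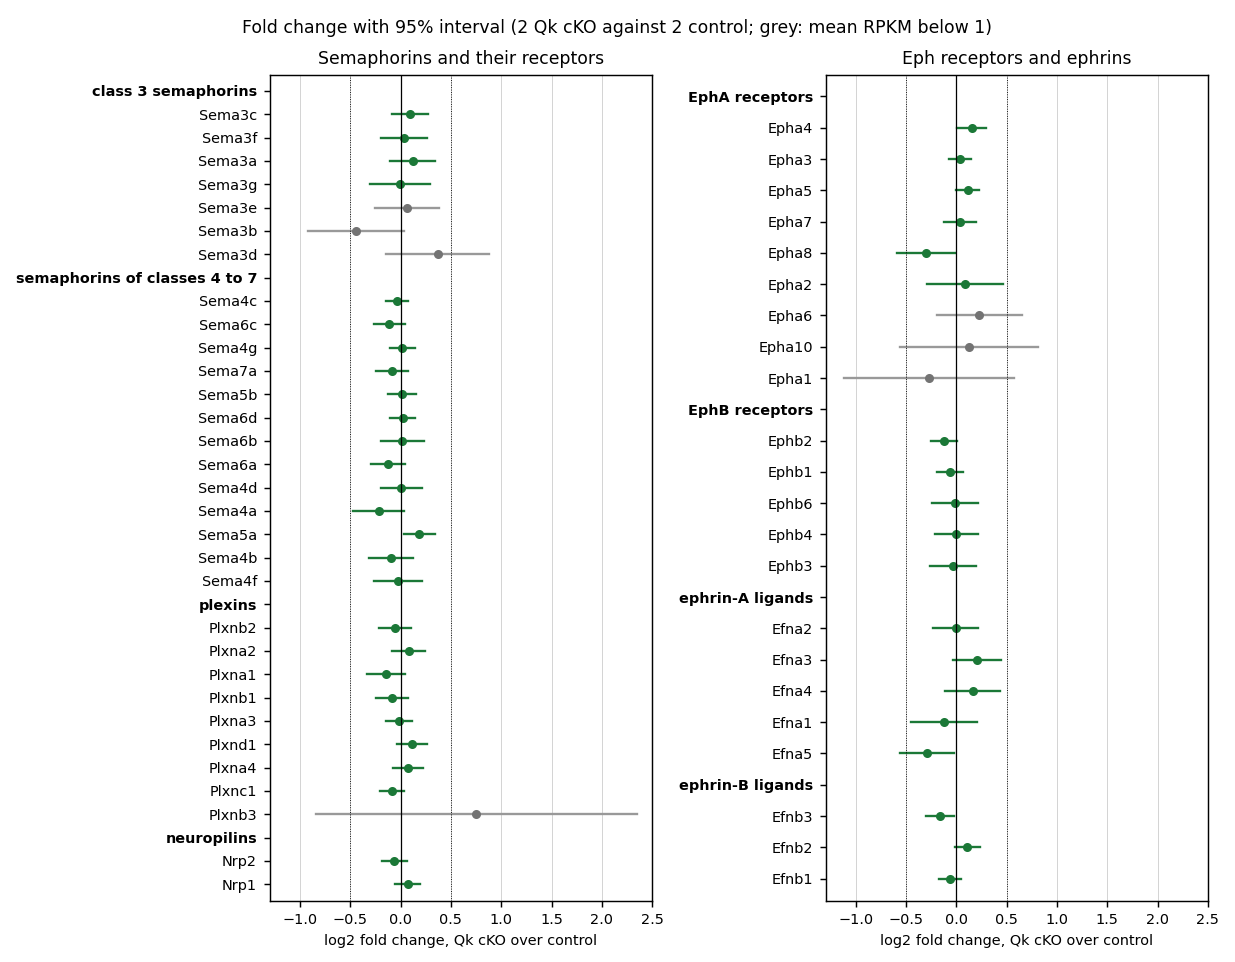
Log2 fold change of each gene, *Qk* cKO over control, with its 95% interval from edgeR (n = 2 per group); dotted lines mark ±0.5 and grey marks a mean below 1 RPKM. The interval leaves out 0 in 5 genes (*Sema5a*, *Epha4*, *Epha8*, *Efna5* and *Efnb3*), and the widest belongs to *Plxnb3* (-0.84 to 2.35).

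For splicing, inclusion was the share of junction tags that supported the longer form, counted per junction, and its difference was taken as control minus *Qk* cKO from tags summed over the replicates of a group. Fisher's exact test compared the summed tags of both isoforms and leaves out the variation between embryos, so that edgeR's test of the isoform by genotype interaction is given beside it. The coverage of an event was the smallest of 4 sums of junction tags, those of either form and those of either group, so that an event needs tags of its rarer form. Of the 115 events, 47 events in 19 genes had a coverage of at least 20 tags and were tested, among them 20 cassette exons, 9 alternative 3′ splice sites and 8 retained introns. The median size of the difference was 0.0251 in these and 0.0256 in all events tested, at a median coverage of 67.5 and 65.8 tags. Fisher's exact test gave an unadjusted p below 0.05 in 4 of 47 events (8.51%, against 16.8% of all events tested).

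The called event was intron retention in *Sema4g*, whose product is a membrane-bound class 4 semaphorin. The intron lies at chr19:44997456-44997528 (mm10, + strand), is 73 bases long, and its bases are in no exon of the GENCODE transcripts. Retention was 8.38% and 4.14% in the controls and 15.2% and 11.7% in *Qk* cKO, so that both *Qk* cKO samples were above both controls. The 95% Wilson intervals of the samples, which like those below cover counting error only, ran from 1.42% to 16.0% in the controls and from 5.95% to 24.1% in *Qk* cKO. The difference was -7.23 percentage points (Fisher's exact test p = 0.00363, FDR 0.0863). For the retained form this test used the tags of both ends of the intron added together. Whether a read that spans the 73 bases was counted at each end is not known here, so these tags may not be independent. With the interaction test of edgeR the FDR was 0.692, and this test called 0 of the 47 events against 0.557% of all events. The call was also lost without control replicate 2 (FDR 0.356 by Fisher's exact test), without *Qk* cKO replicate 1 (FDR 0.419) and with the replicate block (FDR 0.118). *Sema4g* RNA itself was at 18.7 and 19.7 RPKM in the controls and 18.9 and 19.6 RPKM in *Qk* cKO. Among retained introns of all genes, 4.67% were called.

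**Figure D3:**
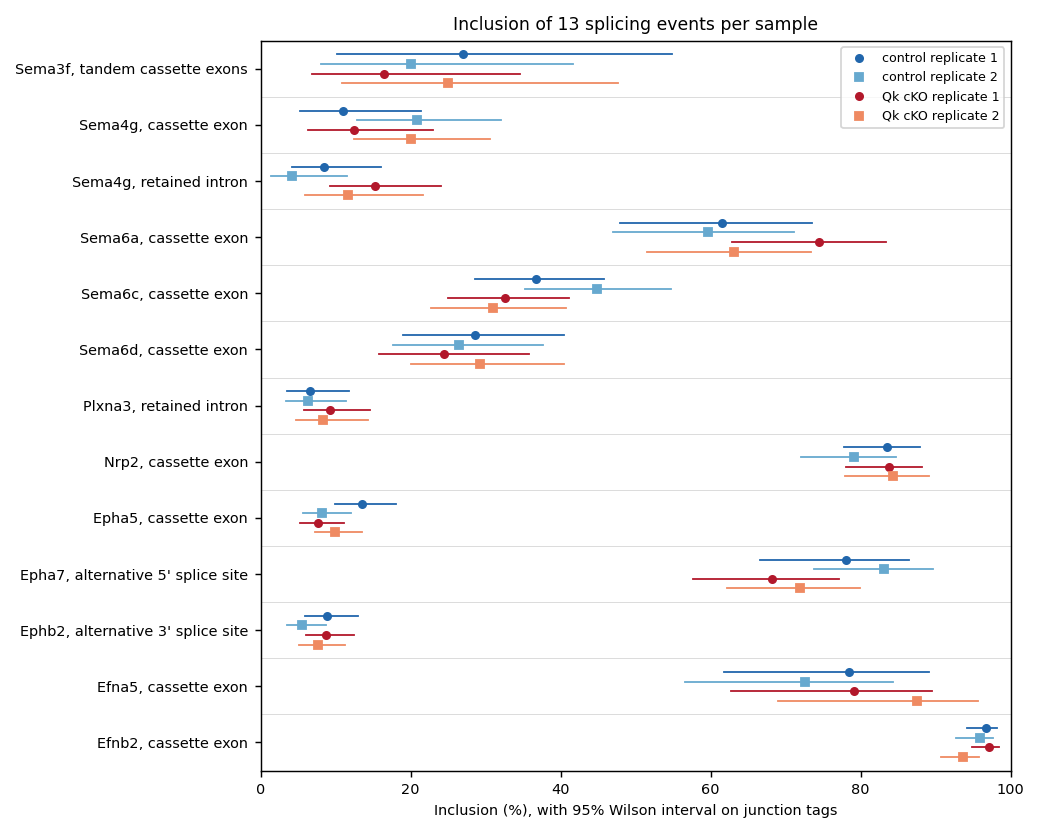
Inclusion in percent of 13 splicing events in each sample, with 95% Wilson intervals on junction tags (blue: control, red: *Qk* cKO; circle: replicate 1, square: replicate 2). The control and *Qk* cKO points do not overlap in the introns of *Sema4g* and *Plxna3* and in *Sema6a*, *Sema6c*, *Nrp2*, *Epha7* and *Efna5*, while intervals of both groups overlap in every event.

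In the semaphorins, the best covered event was the 96-base cassette exon of *Sema6c* (chr3:95171791-95171886, exon 20 of Sema6c-202), whose sequence is given above. It was included at 36.8% and 44.8% in the controls and at 32.5% and 31.0% in *Qk* cKO. Both *Qk* cKO samples were below both controls, by 8.52 percentage points in sum, and the FDR was 0.141 by Fisher's exact test and 0.621 by the interaction test of edgeR. The 168-base exon of *Sema6d*, exon 17 of Sema6d-203 (chr2:124662204-124662371), was included at 28.5% and 26.4% in the controls and 24.4% and 29.3% in *Qk* cKO, with full overlap of the groups. The share depends on the upstream exon used in the count. With the 57-base alternative exon before it as upstream exon, the share was 69.6% and 60.0% in the controls. In *Qk* cKO this share was 51.4% and 68.9%. Both counts include the downstream junction, whose tags come from transcripts with and without the 57-base exon. Neither count thus gives the share among transcripts with that exon, or among those without it. A 165-base exon of *Sema6a* was included at 61.5% and 59.7% in the controls and at 74.4% and 63.1% in *Qk* cKO, with an FDR of 0.946 by Fisher's exact test on all isoform tags. In *Sema4g*, a 186-base exon outside the coding part was included at 10.9% and 20.9% in the controls and at 12.4% and 20% in *Qk* cKO, where the replicates of a group differed more than the groups. For *Sema3f* the event with the smallest p was a pair of tandem cassette exons of 93 and 86 bases in its coding part, with inclusion of 27.0% and 20% in the controls and 16.5% and 25.0% in *Qk* cKO, with an FDR of 0.294 by Fisher's exact test.

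In the receptors of semaphorins, the 51-base exon of *Nrp2* (chr1:62812534-62812584, exon 16 of Nrp2-202) codes for an insert close to the membrane-spanning segment. It was included at 83.5% and 79.1% in the controls and 83.8% and 84.3% in *Qk* cKO, a difference of -2.40 percentage points (Fisher's exact test FDR 0.828). The long form thus dominated in every sample. Among plexins, the event with the smallest p was a 134-base intron of the X-linked *Plxna3* (chrX:74335867-74336000). It was retained at 6.54% and 6.26% in the controls and 9.20% and 8.33% in *Qk* cKO, with both *Qk* cKO samples higher and a Fisher's exact test FDR of 0.434. Of the 8 tested introns of the set, called or not, 5 had more retention in *Qk* cKO and 3 in control. Among called introns only, 79 of the 90 of all genes had more retention in *Qk* cKO and 11 in control. The called intron of the set, in *Sema4g*, also had more retention in *Qk* cKO. The direction over all tested introns is not given here, so the counts of tested and of called introns cannot be compared.

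In the Eph receptors, the 15-base extension at a 5′ splice site of *Epha7* (chr4:28938765-28938779, exon 7 of Epha7-201) showed the larger difference. Its use was 78.1% and 83.2% in the controls and 68.2% and 71.9% in *Qk* cKO. The groups did not overlap, and the difference was 10.8 percentage points with an FDR of 0.266 by Fisher's exact test and 0.900 by the interaction test of edgeR. The 66-base exon of *Epha5* (chr5:84117561-84117626, exon 7 of Epha5-201) was mostly skipped, with inclusion of 13.5% and 8.23% in the controls and 7.69% and 9.96% in *Qk* cKO. Control replicate 1 was the highest, and the FDR of Fisher's exact test was 0.327, or 0.053 and thus called when control replicate 2 was left out. The 3-base step between neighbouring 3′ splice sites of *Ephb2* (chr4:136672508-136672510) was used at 8.84% and 5.50% in the controls and 8.71% and 7.62% in *Qk* cKO, with an FDR of 0.429 by Fisher's exact test.

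Among the ephrins only *Efna5* and *Efnb2* had a tested event. Exon 4 of Efna5-201 (81 bases, chr17:62613316-62613396), skipped in the shorter form of ephrin-A5, was included at 78.5% and 72.6% in the controls and 79.1% and 87.5% in *Qk* cKO. Tags of the skipped form summed to only 27 over the 4 libraries, and the FDR of Fisher's exact test was 0.753. Exon 3 of Efnb2-201 (93 bases, chr8:8623148-8623240) was included at 96.7% and 95.9% in the controls and 97.2% and 93.7% in *Qk* cKO. Skipping was therefore a minor form of *Efnb2* in each library (FDR 0.759, Fisher's exact test).

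A difference of at least 0.1 was found in 3 of the 47 events, against 11.4% of all events tested, and none of these was called. Besides *Epha7* they were both in *Sema6d* and are named after their values were seen. Both concern the *Sema6d* exon shown above. One was the use of its last 12 bases (chr2:124662360-124662371). Inclusion of these bases was 61.7% and 50.02% in the controls and 82.6% and 63.3% in *Qk* cKO, with an FDR of 0.366 by Fisher's exact test. The other was the 156-base form of the same exon, which lacks these 12 bases (chr2:124662204-124662359). As a cassette exon this form was counted with the alternative exon that lies before it as upstream exon. Its inclusion in this count was 63.1% and 60.0% in the controls and 32.0% and 62.2% in *Qk* cKO. *Qk* cKO replicate 1 alone stood apart, and the FDR was 0.940 by Fisher's exact test. The lower shares given above for the full exon were counted from another upstream exon, so those shares and these cannot be compared. Inclusion of both *Qk* cKO samples was above both controls in 12 of the 47 events and below them in 6, where the shares over all events tested were 19.1% and 18.8%. Several *Sema6d* events overlap and share tags, and so are not independent of each other.

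**Figure D4:**
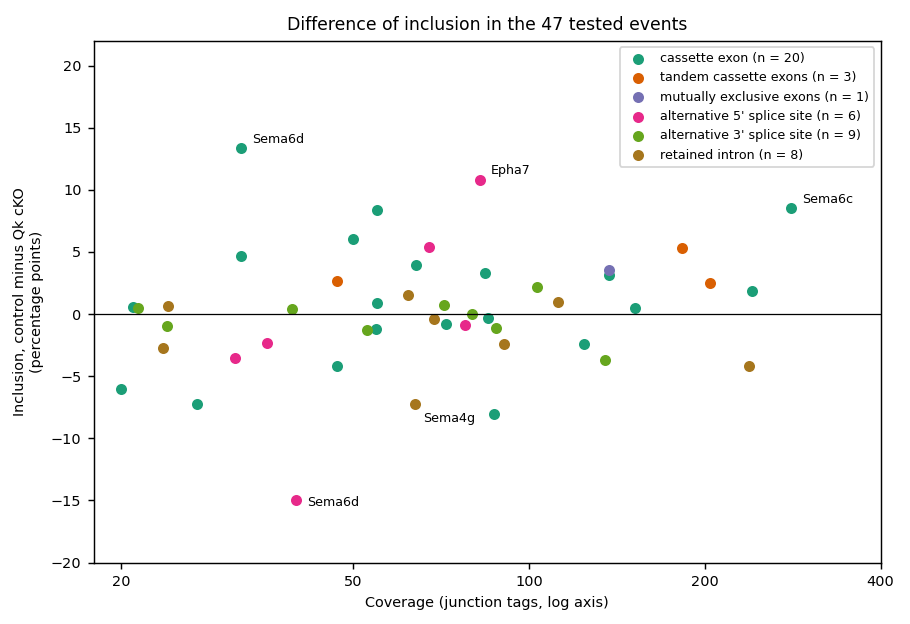
Difference of inclusion (control minus *Qk* cKO, in percentage points) of the 47 tested events against their coverage in junction tags (the smallest sum over a form or a group) on a log axis, coloured by event type. Values lie between -15.0 and 13.3 percentage points, with the 3 largest below 100 tags.

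The 20 tested cassette events of the set concern 18 exons that differ in position. Of these, 13 (72.2%) had a length that was a multiple of 3, against 53.0% of the 4372 such exons of all genes. Forms of an exon that differ only at an end are counted separately. These were the 168- and 156-base forms in *Sema6d* and the 207- and 186-base forms in *Sema4g*, all multiples of 3. Some of the 13 lie outside coding sequence (*Sema6c*, 90 bases, and *Sema4g*, 186 bases) or match no GENCODE exon (*Sema4g*, 207 bases), so the share is not one of coding exons. The median length was 91.5 bases in the set and 94.0 bases in all. The other 68 events of the set had a coverage below 20 tags, and 17 of the 53 genes had no event.

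Genes that act with these receptors were taken from 2 lists of 30 semaphorin and plexin partners and 26 Eph and ephrin partners, 55 genes in all since *Fyn* is in both. None of the 55 transcripts was called by edgeR in either direction, with a median log2 fold change of -0.0059. In splicing, 6 of their 64 tested events (9.38%, against 7.50% of all events tested) were called by Fisher's exact test, 3 of them in overlapping parts of *Grip1*. They lie in *Grip1*, *Kalrn*, *Anks1* and *Cfl1*, which are named here because they were called. The paper lists *Grip1* and *Kalrn* among its Qki-regulated splicing targets from these same data. Since the partner lists were chosen with earlier results known, the 9.38% is not the share of an independent list. *Grip1*, a scaffold protein that binds the tail of B ephrins, had a cassette exon with inclusion of 84.6% and 65.8% in the controls and 25.8% and 23.2% in *Qk* cKO. This difference of 50.5 percentage points was the only one of the 6 called by the interaction test of edgeR (FDR 0.0255), and an alternative 3′ splice site and a retained intron of *Grip1* that were called as well lie in the same stretch. *Kalrn*, which acts downstream of EphB receptors in neurons, had a cassette exon included at 48.9% and 53.6% in the controls and at 66.4% and 75.7% in *Qk* cKO. In *Anks1*, an adaptor of Eph receptors, a cassette exon was included at 20.5% and 24.6% in the controls and 16.2% and 12.5% in *Qk* cKO. Retention of an intron of *Cfl1*, which encodes the actin-severing protein cofilin, stayed below 1.05% in every sample. It was 0.524% and 0.590% in the controls and 0.838% and 1.04% in *Qk* cKO, so both *Qk* cKO samples were above both controls.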

How the data were processed

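Per the labels and the paper's methods, the authors used OLego for alignment to the genome (mm10) and to known exon junctions, and Quantas for quantification. The authors deposited estimated counts of tags per gene and per isoform and junction, which need not be whole, and RPKM from these tags and the exon length. Tags were rounded, and all genes with at least 1 tag were fitted in edgeR (version 4.0.16 under R 4.3.3) by quasi-likelihood after TMM scaling. Calls needed p below 0.01 and a Benjamini-Hochberg FDR below 0.1, over all genes or within an event type. Standard errors were derived from the F statistic. Events needed a coverage of 20 tags, in either form and either group. Scripts were tested on simulated data. DESeq2 1.42.0 and other alternatives are given in the closing section. Files that the labels assign to a sample were used as 1 library each. Depth was 37942046 to 42994832 tags. Named genes are, per group, the 2 with the highest mean RPKM and the 2 with the smallest p, and named events are the called one, the one with the smallest p of each group and the 6 best covered cassette exons, 1 per gene. Members and lists were chosen with earlier results of these data known. The motif search near exons that was planned is not analysed here, since it needs intron sequence. Positions are counted from 1, and no strand information was used.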

Additional observations from a re-analysis of the deposited data

How the results depend on the processing

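The count of called transcripts of the set was 0 under all 11 alternatives (stricter filters on low genes, RLE and upper-quartile scaling, DESeq2, the exact test, the replicate block and each sample left out). Over all genes the count moved from 110 to 11 with filterByExpr, 10 with a mean RPKM of at least 1, 57 with the exact test, 192 with the replicate block, and 0 to 428 when a sample was left out. Partner transcripts called ranged from 0 to 3 with a sample left out, the 3 (*Vav3*, *Rnd3* and *Rasa1*) without *Qk* cKO replicate 1. Called events of the set were 0 with the interaction test of edgeR, 0 with the replicate block and 0 to 1 with a sample left out. Without control replicate 2 the single call was *Epha5* in place of *Sema4g*. The *Epha5* value is in the range given below. Over all events 862 were called by Fisher's exact test, 64 by the interaction test, 804 with the replicate block and 488 to 722 with a sample left out. Leaving out a sample leaves 1 in a group, which is then assumed to vary like the other group.

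Small differences changed sign when 1 sample was left out. Log2 fold changes then ranged from -0.0032 to 0.179 in *Sema3c*, from -0.0579 to 0.114 in *Sema3f*, from -0.306 to 0.0274 in *Plxna1*, from -0.0275 to 0.240 in *Plxnd1*, from -0.0155 to 0.156 in *Nrp1*, from -0.135 to 0.0164 in *Ephb1* and from -0.0640 to 0.0438 in *Efna2*. Of the 5 genes with an unadjusted p below 0.05, 3 kept their sign but moved by over 1.5 times: *Sema5a* ranged from 0.0474 to 0.331, *Efna5* from -0.446 to -0.126 and *Efnb3* from -0.283 to -0.0328. Differences of inclusion ranged from -0.0184 to 0.0299 in the *Sema6d* exon, from -0.0562 to 0.0435 in the *Sema4g* exon, from -0.00834 to 0.0264 in *Efnb2*, from -0.00654 to 0.0460 in *Epha5*, from -0.0232 to 0.0623 in *Sema3f* and from -0.0267 to 0.0067 in *Ephb2*. The cause was not tested. The *Sema4g* intron kept its direction (-0.0957 to -0.0518), and no other sign changed among the named genes and events.

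Same-numbered samples of the 2 groups did not deviate together over autosomal genes (correlation -0.081 over 12108 genes) or over events (-0.014). With sex chromosomes included the correlation was 0.30, and the sex of the embryos followed the replicate number, as given below. The numbers were not taken as pairs in the main fit, so sex is not accounted for there. The replicate block among the alternatives takes the number into account. With 2 samples per group, changes in the weak genes could not be bounded closely.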

Other observations

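The libraries differed in how often they held the highest value of a gene. Of the 46 genes with at least 1 RPKM, 21 were highest in control replicate 2 and 16 in *Qk* cKO replicate 2, against 5 in control replicate 1 and 4 in *Qk* cKO replicate 1. Over all genes of at least 1 RPKM the shares were 29.9%, 29.0%, 24.1% and 17.0% in the same order. Summed RPKM of the 53 genes was 947 and 927 in the second replicates and 909 and 901 in the first. *Xist*, expressed from the inactive X chromosome, was at 57.1 and 64.5 RPKM in the first replicates and at 0.0265 and 0.00951 RPKM in the second, so the sex of the embryos followed the replicate number. The X-linked genes of the set, *Efnb1*, *Plxna3* and *Plxnb3*, were not called. The part of sex or of tissue composition in these differences between libraries was not tested.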
